A study of Homo sapiens with 6 samples.

Results

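Transcripts of the ID proteins, of activin and TGF-β ligands and of the inhibitors that feed back on BMP and activin signaling were followed in RBM12-depleted iNeurons, glutamatergic neurons derived from the human iPSC line WTc11. The members were chosen by gene name from a list of 10, and 6 of the 19823 genes in the table were among them: ID1, ID2, ID4, TGFB2, SMAD7 and BAMBI. The remaining 4 listed genes, ID3, INHBA, INHBB and SMAD6, were not analysed here. All 6 members had more than 5 reads in at least 4 samples and belonged to the 18130 genes tested.

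Poly(A) RNA-seq was carried out on 6 samples, 3 untreated and 3 treated with isoproterenol, a synthetic catecholamine that raises cAMP. All 6 carried the RBM12 knockdown, and the neurons came from the parental line. The study made its neurons by inducing the transcription factor neurogenin 2 with doxycycline in a clonal line that also carries the CRISPR interference repressor. The labels give no dose or duration of isoproterenol, and they do not say whether replicates were separate cultures, so p-values measure the spread between these samples, which may be technical. Replicates are numbered 1 to 3 in each group, and samples with the same number are called a pair.

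Reads per sample ranged from 18116816 in isoproterenol replicate 2 to 21488793 in untreated replicate 2. RBM12 itself was at 244.3 to 278.7 normalized counts in untreated and 194.6 to 237.6 in isoproterenol samples, and with no control guide among these samples the extent of depletion was not measured. The neuronal transcripts MAP2, STMN2 and SLC17A6 were abundant, the lowest value being 12393 normalized counts for SLC17A6, whereas TUBB3, also a neuronal marker, was at 69.2 to 94.4. Of the other cell types, POU5F1 of the pluripotent state was at 1.03 to 10.4 normalized counts and SOX2 of neural progenitors was at 0 in 5 of the 6 samples, although NES, also listed for progenitors, was at 6654 to 7106. A normalized count is a read count divided by a size factor of the sample, and a log2 fold change is the isoproterenol mean minus the untreated mean of log2(normalized count + 1).

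ID proteins are helix-loop-helix factors without a DNA-binding region. They bind the E proteins TCF3, TCF4 and TCF12 and thereby keep these from pairing with proneural factors such as neurogenin 2. BMPs, activins and TGF-β bind pairs of serine/threonine kinase receptors that phosphorylate SMAD proteins. BMP signaling raises transcription of the ID genes and of SMAD6, SMAD7 and BAMBI, and the products of the last 3 dampen signaling from the same receptors. The inhibin β subunits form activins.

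Promoters of all 6 members were found in RefSeq (GRCh38.p14), as windows from 250 bases before to 50 bases after an annotated start, with 3 starts for SMAD7. A full cAMP response element (TGACGTCA) was in none of them, against 1.85% of all 35116 windows. A shorter form of it (TGACG or its reverse complement CGTCA, also part of the full element) was in 1 member, TGFB2, against 24.6% of all windows. The GC-rich SMAD element of BMP target genes (GGCGCC) was in 1 member, BAMBI, against 19.2%, and the SMAD box (GTCTAGAC) was in none, against 0.202%. An E-box (CANNTG), the site that E proteins and their partners bind, was in 4 members, ID2, ID4, TGFB2 and SMAD7, against 68.7%. These are matches of letters on either strand within the windows and do not show binding. Stretches of 60 bases are printed for ID4, the member with a call, for TGFB2, which held the shorter element, and for BAMBI, which held the repeated GC-rich element, with the matches in capitals and distances counted from the RefSeq start.
ID4 (chr6:19837310-19837369, plus strand, ending 1 base before the start): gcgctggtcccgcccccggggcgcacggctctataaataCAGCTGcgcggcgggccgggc
TGFB2 (chr1:218345246-218345305, plus strand, ending 31 bases before the start): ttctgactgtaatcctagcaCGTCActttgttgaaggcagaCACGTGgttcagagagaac
BAMBI (chr10:28677301-28677360, plus strand, ending 161 bases before the start): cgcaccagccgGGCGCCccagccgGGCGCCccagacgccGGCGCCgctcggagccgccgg
The ID4 window holds an E-box 21 bases before the start. In TGFB2 the shorter element begins 70 bases and the E-box 49 bases before the start, and BAMBI carries the GC-rich element at 209, 196 and 181 bases before its start.

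On the scale of normalized counts per kilobase of exon, the members differed widely. ID4 averaged 853.3 in untreated and 771 in isoproterenol samples, and ID2 averaged 775.5 and 742.5. The ranges of ID4 and ID2 over samples overlapped in both groups. SMAD7 followed at 62.9 and 66.3, then BAMBI at 25.5 and 29.5, ID1 at 18.4 and 12.6 and TGFB2 at 9.10 and 13.4. ID1 overlapped BAMBI in the untreated group and TGFB2 in the isoproterenol group, so their order was not resolved there. ID2 and ID4 were thus the abundant ID transcripts of those measured in these neurons, and ID1 was scarce, with 11 to 27 reads per sample.

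ID4 was slightly lower with isoproterenol in every pair. Its gene (ENSG00000172201) lies on chromosome 6 from 19837370 to 19842197 on the plus strand (GRCh38). It stood at 3200, 3940 and 2773 normalized counts in the untreated replicates 1 to 3 and at 2832, 3650 and 2476 in isoproterenol replicates 1 to 3. Replicate 2 was the highest and replicate 3 the lowest of both groups, and the groups overlapped. Within pairs 1, 2 and 3 the level changed by -11.5%, -7.36% and -10.7%. On the log2 scale the SD was 0.25 between untreated and 0.28 between isoproterenol replicates, but 0.035 between the 3 pair changes. The log2 fold change was -0.15 (SE 0.21, 95% interval -0.72 to 0.42), which did not pass FDR 0.05 in limma without the pairs (adjusted p 0.919). With replicate number as a block the SE was 0.031, the interval -0.21 to -0.088 and the limma adjusted p 4.56e-04. This blocked call was also made with any 1 pair left out, at adjusted p 0.0207, 0.00215 and 0.0151 without pairs 1, 2 and 3. Those fits reuse the same samples. With the block and all 3 pairs, each gene has 2 residual degrees of freedom. Blocked p-values here therefore rest largely on the variance that limma shares across genes. In the fits without the block the estimate depended on single samples, from -0.016 and -0.025 without untreated replicate 2 and isoproterenol replicate 3 to -0.27 and -0.30 without untreated replicate 3 and isoproterenol replicate 2. In bulk RNA, fewer cells of a type and less RNA per cell cannot be told apart. The 2 astrocyte markers in the table, AQP4 and S100B out of 5 listed, summed to 159.8 to 175.1 normalized counts in untreated and 134.4 to 156.8 in isoproterenol samples. Neither passed in either fit, and the log2 fold change was -0.27 for AQP4 but -0.015 for S100B, whose pairs differed by -0.62%, 30.3% and -25.2%. Among the 10 neuronal markers GRIN1, a glutamate receptor subunit, passed with the block and was higher without overlap (log2 fold change 0.29, limma adjusted p 0.364, or 2.67e-04 when blocked). The part of these markers in the ID4 result was not tested.

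**Figure D1:**
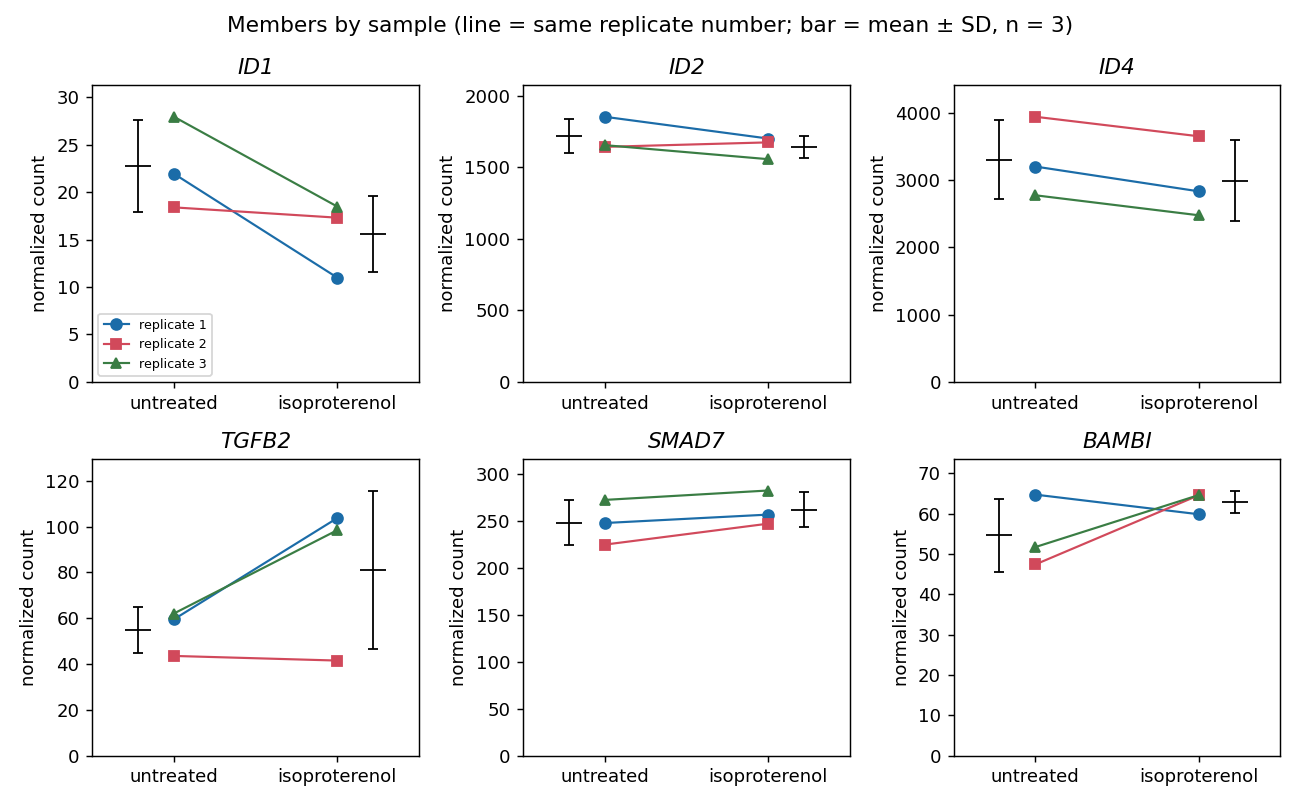
Normalized counts (y axis, from 0) of the 6 members in untreated and isoproterenol samples, with lines joining samples of the same replicate number and bars giving mean ± SD (n = 3 per group). The 3 lines of ID4 run downward and nearly parallel, whereas those of TGFB2 rise in pairs 1 and 3 only.

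ID2, the other abundant ID transcript, did not pass in either fit. Its gene (ENSG00000115738) lies on chromosome 2 from 8678845 to 8684461. It was at 1852, 1642 and 1654 normalized counts in the untreated replicates 1 to 3 and at 1700, 1673 and 1556 in isoproterenol replicates 1 to 3. Pairs 1 and 3 differed by -8.21% and -5.93% and pair 2 by 1.91%, and the groups overlapped. The log2 fold change of -0.061 had a 95% interval from -0.18 to 0.060, and from -0.14 to 0.018 with the replicate block (limma adjusted p 0.843 and 0.485). Leaving out untreated replicate 1 gave -0.0053, and leaving out isoproterenol replicate 3 gave -0.023. Its exons share 145 bases with the antisense transcript ID2-AS1, and the strand setting of the counting is not stated. ID2-AS1 was at 193.2, 218.7 and 175.9 normalized counts in untreated and 188.6, 179.9 and 136.4 in isoproterenol replicates 1 to 3, a log2 fold change of -0.23 (limma adjusted p 0.730, or 0.301 when blocked).

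ID1 had the largest estimate among the ID genes and the fewest reads. The gene (ENSG00000125968) lies on chromosome 20 from 31605283 to 31606515. Normalized counts were 21.9, 18.4 and 27.9 in untreated and 11.0, 17.3 and 18.5 in isoproterenol replicates 1 to 3. The groups overlapped only through untreated replicate 2 and isoproterenol replicate 3. All 3 pairs were lower, with changes of -0.94, -0.083 and -0.57 on the log2 scale for pairs 1, 2 and 3, giving a log2 fold change of -0.53 with a 95% interval from -1.21 to 0.15 (limma adjusted p 0.734, or 0.465 when blocked). No change in the level of ID1 was detected, and the interval includes both 0 and -1. Without isoproterenol replicate 1 the estimate was -0.31.

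TGFB2, which encodes the ligand TGF-β2, split by pair. The gene (ENSG00000092969) lies on chromosome 1 from 218345336 to 218444619. It stood at 59.5, 43.5 and 62.1 normalized counts in untreated and 103.8, 41.5 and 98.5 in isoproterenol replicates 1 to 3. Isoproterenol replicates 1 and 3 were above every untreated sample, while isoproterenol replicate 2 was the lowest sample of all. The pair changes were 0.79, -0.067 and 0.66 on the log2 scale, and their mean of 0.46 had a 95% interval from -0.24 to 1.16 without the block and from 0.083 to 0.84 with it. In limma the adjusted p was 0.781, or 0.170 when blocked, so neither passed FDR 0.05. The estimate and the blocked call depended on which replicates were kept. Without isoproterenol replicate 2 the log2 fold change was 0.88 (adjusted p 0.071), and with the block and without pair 2 it was 0.72 and passed (adjusted p 0.0211). With the block and without pairs 1 and 3 it was 0.30 and 0.36 and did not pass (adjusted p 0.691 and 0.578). Without isoproterenol replicates 1 and 3 it was 0.23 and 0.27, and without untreated replicate 2 it was 0.30. TGFB2 shares 1371 exonic bases with TGFB2-OT1 on the same strand and 701 with TGFB2-AS1 on the opposite one, and reads falling there have no single source.

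The feedback inhibitors SMAD7 and BAMBI did not pass in either fit. SMAD7 (ENSG00000101665; chromosome 18, 48919853 to 48950965, minus strand) blocks receptor-driven phosphorylation of other SMAD proteins. It was at 247.5, 224.5 and 272.1 normalized counts in untreated and 256.4, 246.8 and 282.1 in isoproterenol replicates 1 to 3. Each pair was higher, by 3.62%, 9.94% and 3.68%, with overlapping groups. The log2 fold change of 0.080 had a 95% interval from -0.14 to 0.30, and from -0.11 to 0.27 with the block (limma adjusted p 0.902 and 0.763). Leaving out untreated replicates 2 and 3 gave 0.010 and 0.15, and leaving out isoproterenol replicates 2 and 3 gave 0.12 and 0.025.

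BAMBI (ENSG00000095739; chromosome 10, 28677510 to 28682932), a decoy receptor without a kinase domain, was at 64.7, 47.4 and 51.7 normalized counts in untreated and 59.9, 64.6 and 64.6 in isoproterenol replicates 1 to 3. Untreated replicate 1 was the highest of the 6 samples, and pair 1 was lower where pairs 2 and 3 were higher. The log2 fold change was 0.21 with a 95% interval from -0.19 to 0.62 (limma adjusted p 0.836, or 0.668 when blocked). Without untreated replicate 1 it was 0.34 and without untreated replicate 2 it was 0.12.

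**Figure D2:**
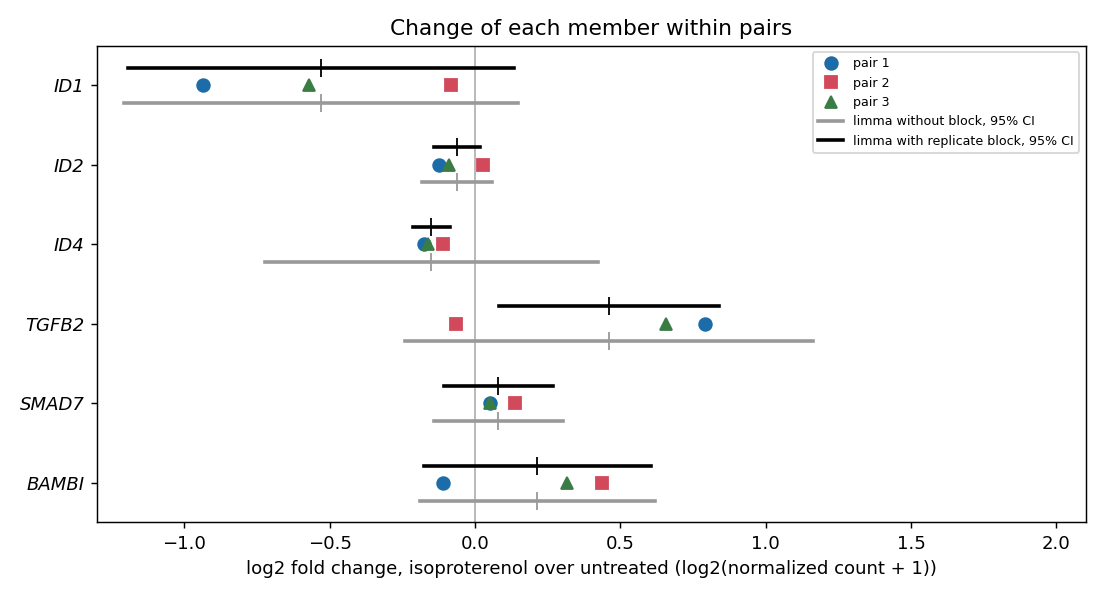
Log2 fold change of isoproterenol over untreated (x axis) for each member (y axis), with symbols for the 3 pairs and bars for the limma estimate and its 95% interval without (grey) and with (black) the replicate block. The black interval of ID4, -0.21 to -0.088, is much narrower than its grey one, while for ID1, SMAD7 and BAMBI both are of similar width.

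Counted over the members, 0 of 6 passed FDR 0.05 in the unblocked limma fit, against 0.0165% of all tested genes (0.00552% higher and 0.011% lower), and 0 of 6 had an unadjusted p under 0.05, against 7.68% of all genes. With the replicate block 1 of 6 passed, ID4, which was lower, against 4.88% of all genes, 2.06% lower and 2.82% higher. The change had the same sign in all 3 pairs in 3 of 6 members, with ID1 and ID4 lower and SMAD7 higher, against 36.1% of all genes (18.5% higher and 17.6% lower). In 0 members did the groups separate, against 12.9% of all genes (6.73% higher and 6.19% lower). The median log2 fold change was 0.0091 over the members and 0.0015 over all tested genes, with 3 members above and 3 below 0, against 50.5% of all genes above 0. ID1, ID2, ID4 and BAMBI are on the list of isoproterenol targets that the study chose for a rise in neurons other than the parental ones. In these parental neurons the estimates of the 3 ID genes were below 0 and that of BAMBI was above it.

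By the pattern over the 6 samples, the transcripts most like ID1 among the 13063 genes averaging 50 or more normalized counts were CCDC107, AC114271.1 and AC068888.1, with a Pearson r of 0.979, 0.972 and 0.971 on the log2 scale. The transcripts most like ID4, a member looked at in this way after its values were seen, were IQCJ-SCHIP1, DAAM1 and OPRK1, at 0.996, 0.995 and 0.993. The points share pairs and size factors. These genes are the top 3 of 13063 over 6 samples, a search that favors high r, and they do not show shared regulation.

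Around the members, 61 of 77 other listed genes of the pathway were in the table and 56 were tested. None (0) passed FDR 0.05 in limma without the block, against 0.0165% of all genes. At an unadjusted p under 0.05 were 7 of 56, against 7.68% of all genes. With the block 2 were higher and 1 was lower, all 3 of them receptors (3 of 56, against 4.88% of all genes). The groups separated in 6 genes that were higher and 1 that was lower, of 56 tested, against 6.73% and 6.19% of all genes. The list's median log2 fold change was -0.0075, with 26 genes above and 30 below 0.

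The 3 genes called with the block were among the 10 receptors tested, and whether receptors differ from the other roles was not tested. BMPR2, the type II receptor for BMPs, averaged 5488 ± 100.4 normalized counts untreated and 5829 ± 163.2 with isoproterenol (SD, n = 3 each), a log2 fold change of 0.087, with groups that did not overlap. In limma it had an adjusted p of 0.633, or 0.0280 when blocked. RGMA, a membrane-anchored BMP co-receptor, averaged 4956 ± 48.4 and 5396 ± 233.7 (log2 fold change 0.12), again without overlap, at a limma adjusted p of 0.495, or 0.00109 when blocked. It shares 428 exonic bases with the pseudogene YBX2P2. ACVR2B, a type II receptor for activins, was at 3038, 3530 and 2672 normalized counts in untreated and 2800, 3136 and 2553 in isoproterenol replicates 1 to 3, lower in each pair (log2 fold change -0.12; limma adjusted p 0.877, or 0.0135 when blocked). As for ID4, replicate 2 was its highest and replicate 3 its lowest sample in both groups.

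With 1 pair left out, the blocked call was lost in 3 of 3 fits for BMPR2, 2 of 3 for ACVR2B and 1 of 3 for RGMA. BMPR2 had adjusted p 0.212, 0.0642 and 0.190 without pairs 1, 2 and 3, ACVR2B had 0.0790, 0.248 and 0.0190, and RGMA had 0.0340, 0.0945 and 3.92e-04. In the fits without the block, the estimate for ACVR2B was -0.015 without untreated replicate 2 and -0.22 without untreated replicate 3. TGFBR2, the type II receptor for TGF-β, had 1 to 6 reads in every sample and was not tested, while the type I receptor TGFBR1 stood at 2976 ± 163.3 and 2932 ± 77.0 normalized counts.

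**Figure D3:**
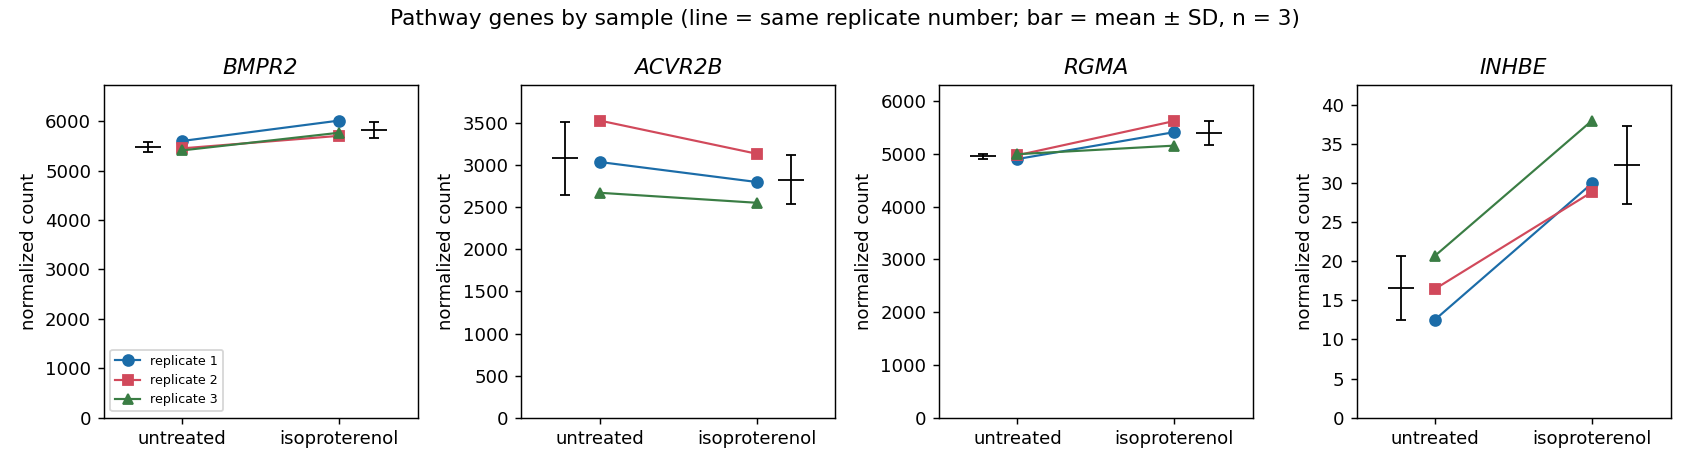
Normalized counts (y axis, from 0) of BMPR2, ACVR2B, RGMA and INHBE in untreated and isoproterenol samples, with lines joining same-numbered samples and bars giving mean ± SD (n = 3 per group). ACVR2B is lower in each pair although its groups overlap, and the groups of the other genes shown separate.

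Among the ligands (15 tested), 0 passed in either fit. GDF11, a ligand of activin receptors, was the most abundant per length at 643.8 untreated and 679.9 treated normalized counts per kilobase (log2 fold change 0.079; limma adjusted p 0.660, or 0.0553 when blocked). The largest estimates were those of INHBE and BMP4, which are named after their values were seen. INHBE, the inhibin βE subunit, had 12.5, 16.4 and 20.7 normalized counts in untreated and 29.9, 28.8 and 38.0 in isoproterenol replicates 1 to 3, with no overlap (log2 fold change 0.94, SE 0.29; limma adjusted p 0.413, or 0.0519 when blocked). The antisense gene AC022506.2 covers 499 of its exonic bases. That gene was at 14.6, 9.68 and 16.6 normalized counts in untreated and 18.0, 13.8 and 19.5 in isoproterenol replicates 1 to 3. Its log2 fold change was 0.33 (limma adjusted p 0.869, or 0.743 when blocked), and its part in the INHBE counts was not tested. BMP4, an inducer of ID genes, had 19.8, 20.3 and 14.5 normalized counts in untreated and 16.0, 8.07 and 5.13 in isoproterenol replicates 1 to 3, a log2 fold change of -0.96 (SE 0.41; limma adjusted p 0.596, or 0.173 when blocked). Both rest on few reads, 12 to 37 per sample for INHBE and 5 to 21 for BMP4.

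**Figure D4:**
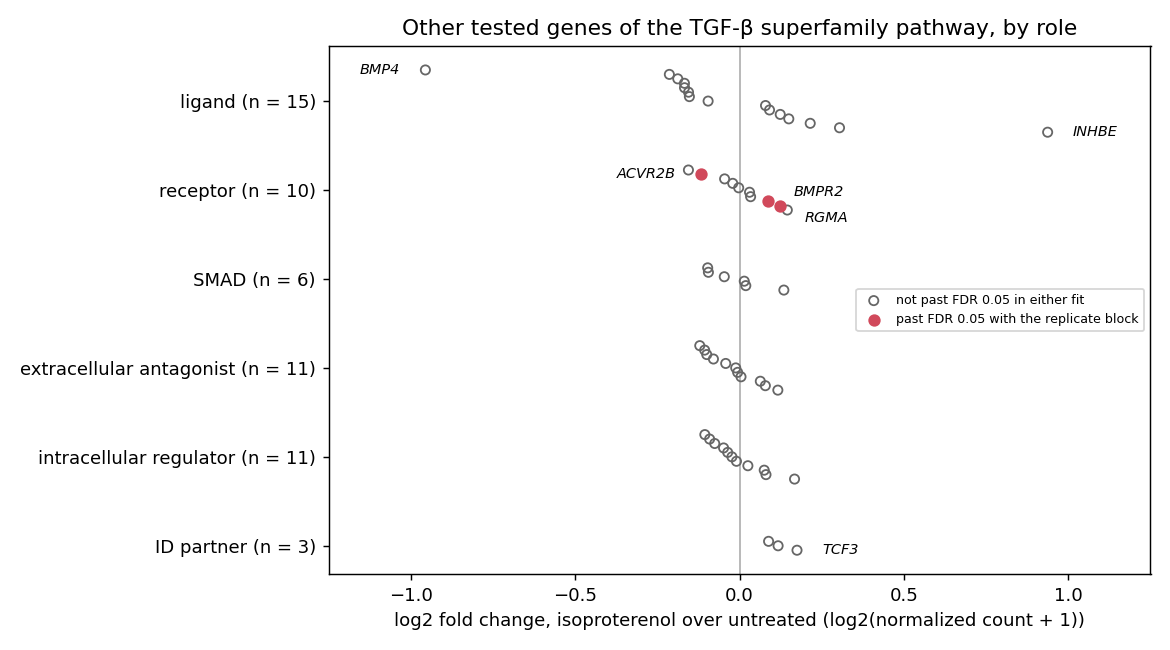
Log2 fold change of isoproterenol over untreated (x axis) for the 56 tested pathway genes, 1 point per gene, by role (y axis), with filled points for genes past FDR 0.05 with the replicate block. The filled points are 3 receptors within 0.13 of 0, while INHBE and BMP4 lie farthest out.

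The E proteins, which ID proteins bind, were all 3 above 0, against 50.5% of all genes. TCF3 was at 568, 557.4 and 524.5 normalized counts in untreated and 632.6, 628.5 and 601.1 in isoproterenol replicates 1 to 3, without overlap. Its log2 fold change was 0.17 (SE 0.071), with pair changes of 0.16, 0.17 and 0.20, and it did not pass (limma adjusted p 0.595, or 0.0976 when blocked). The estimate was 0.12 for TCF4 and 0.088 for TCF12, the most abundant of them per length (blocked limma adjusted p 0.495 and 0.316). With single samples left out these ran from 0.051 to 0.19 for TCF4 and from 0.015 to 0.21 for TCF12. The change in pair 3 of TCF4 (-0.012) and in pair 2 of TCF12 (-0.036) was below 0.

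In the remaining groups 0 genes passed in either fit: 6 SMAD genes, 11 extracellular antagonists and 11 intracellular regulators. Their medians were -0.016, -0.012 and -0.023 on the log2 scale, and their estimates together ran from -0.12 to 0.17. The most abundant per length were SMAD1 (log2 fold change -0.046), FSTL1 (0.063) and STRAP (-0.048), as was the co-receptor RGMB (-0.045) among the receptors, which shares 2682 exonic bases with an antisense gene. The signs of SMAD1, FSTL1 and RGMB turned when single samples were left out.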

How the data were processed

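Per the labels, the authors prepared poly(A) libraries with a directional kit. They aligned reads to GRCh38 with STAR and counted them per gene with featureCounts. Versions, annotation release and strand setting are not given in the sources used here. The deposited signal per gene and sample was made by the authors, who divided each read count by 1 DESeq2 size factor per sample. In each column 100% of the values above 0 were whole multiples (within 0.01) of the smallest, which was taken as 1 read. For isoproterenol replicate 1 a separate check for whole reads was not passed. Its size factor of 1.00 puts the step close to 1, where that check cannot decide, so its reads rest on the whole multiples alone. Genes with more than 5 reads in at least 4 samples were kept, which removed 1693.

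Groups and replicate numbers came from sample titles. Log2(normalized count + 1) was fitted with limma 3.58.1 in R 4.3.3 (trend, robust, two-sided, Benjamini-Hochberg over 18130 genes), after tests on simulated data. FDR 0.05 means an adjusted p under 0.05. Within each replicate number, departures from the group mean of the untreated and the isoproterenol sample had a correlation of 0.269, 0.493 and 0.388 (numbers 1 to 3; 11587 genes averaging 100 or more), all above 0.1. Samples of the same number were therefore treated as pairs. Samples of different numbers were not correlated in this way, so these values do not establish that the samples were paired. The labels do not say what such samples shared, and the correlations come from the same values that were then fitted. Values fitted with replicate number as a block are given as well. The first value given is from the fit without the block. Because isoproterenol replicate 1 did not pass the check for whole reads, the planned count-based tests and TMM scaling were not run. Reads were used for the filter, for the alternative scaling by total counts and to describe depth.

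GENCODE release 44 held 99.6% of the gene identifiers and was the source of positions, exon lengths and overlaps. The members, the pathway and marker lists and the motifs were chosen with earlier results of these data known. Named were all members, pathway genes past FDR 0.05 in either fit, the most abundant pathway gene of each role and the 3 genes most like ID1. The same could not be done for INHBA. TCF3, TCF4, TGFBR1, TGFBR2, INHBE and BMP4 fall outside these rules and were named in addition.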

Additional observations from a re-analysis of the deposited data

How the results depend on the processing

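Each member kept its direction in all alternatives run: scaling by total counts, 3 other filters (none, 3 samples in place of 4, and a mean of 50 or more, which leaves out ID1), pseudocounts of 0.5 and 5, the replicate block and leaving out each sample in turn. The count of members past FDR 0.05 was 0 in every fit without the block, 1 with the replicate block (ID4), and 1 with the block under total-count scaling or a pseudocount of 5, fits that were added after the data were seen. With the block and 1 pair left out it was 1 to 2. Over all genes, 3 passed without the block and 2 to 67 with 1 sample left out (67 without isoproterenol replicate 2), against 885 with the replicate block, 898 and 910 with the block under total-count scaling and a pseudocount of 5, and 531, 665 and 456 with the block and without pairs 1, 2 and 3. Of the pathway list 0 passed without the block, 3 with the replicate block, 4 with the block under total-count scaling (GDF11 in addition), 4 with the block at a pseudocount of 5 (INHBE in addition, adjusted p 0.0426), and 0 to 2 with the block and 1 pair left out. The cause of these differences was not tested. The sign turned for FSTL1 (-0.11 without untreated replicate 2, -0.023 without isoproterenol replicate 1, and up to 0.21 without isoproterenol replicate 2), RGMB (0.016 without untreated replicate 3, 0.0078 without isoproterenol replicate 2) and SMAD1 (0.011 without untreated replicate 2, 0.0017 without isoproterenol replicate 3), none of which passed in any fit. Few reads stand behind ID1, BMP4 and INHBE. The planned count-based tests and TMM scaling were not run.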
